A study of Mus musculus with 8 samples.

Results

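Expression of 9 genes of extracellular matrix proteolysis was followed through a reproductive cycle of the mouse mammary gland: the matrix metalloproteinases Mmp2, Mmp3, Mmp11, Mmp14 and Mmp15, the tissue inhibitors of metalloproteinases Timp1, Timp2 and Timp3, and Adamts1, a secreted metalloproteinase of the related ADAMTS family. They were chosen by symbol and are 9 of the 27998 genes in the deposited matrices. Single cells had been sequenced from the mammary glands of 8 C57BL/6N female mice, 2 at each of 4 stages. These were nulliparous mice 8 weeks old (NP), mice at day 14.5 of gestation (G), lactating mice at day 6 (L), and mice whose gland had involuted, 11 days past a natural weaning (PI). The labels give no transgene and no treatment for any mouse. Live cells positive for EpCAM, an epithelial surface protein, and negative for the blood and endothelial markers CD31, CD45 and Ter119 had been sorted, and each library came from 1 mouse. By the study's records of the oestrous cycle, mouse PI1 was in dioestrus and the other NP and PI mice were in oestrus.

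Matrix metalloproteinases are zinc enzymes that cut collagens, laminins, proteoglycans and other proteins around cells. TIMPs bind to their active site and block it, and membrane-type enzymes such as Mmp14 can also use Timp2 as a docking partner to switch on the secreted precursor of Mmp2. In the mammary gland these enzymes are best known from ductal branching and from involution, when the basement membrane around the milk-producing alveoli is taken down, and they are classically regarded as products of the stroma that act on the epithelium.

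The genes lie at dispersed sites of the mouse genome (GRCm38, GENCODE annotation). The proteases are Mmp2 at chr8:92827291-92853420 (+), Mmp3 at chr9:7445822-7455975 (+), Mmp11 at chr10:75923222-75936496 (-), Mmp14 at chr14:54431612-54445364 (+), Mmp15 at chr8:95352268-95375080 (+) and Adamts1 at chr16:85793827-85803113 (-). The inhibitors are Timp1 at chrX:20870166-20874735 (+), Timp2 at chr11:118301069-118355740 (-) and Timp3 at chr10:86300372-86349506 (+). Timp1 overlaps Syn1 and Timp3 overlaps Syn3 on the opposite strand, Mmp11 overlaps Chchd10 on the opposite strand, and Timp2 overlaps Cep295nl on its own strand. Whether strand was used in counting is not given in the sources used here, so counts of these 4 genes could in part belong to the overlapping gene.

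Promoters were matched for 8 of the 9 genes in RefSeq (GRCm38.p6), Mmp2 being the exception. The 250 bases upstream of the RefSeq start are shown for Adamts1, Timp1 and Timp3, which recur in the results below, and for Mmp3. Mmp3 was the only one of the 8 with a match to a motif searched, and capitals mark that match. For Timp3 the RefSeq start lies inside the GENCODE gene given above, so the last bases shown fall within that gene.

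Mmp3 (chr9:7445572-7445821, + strand): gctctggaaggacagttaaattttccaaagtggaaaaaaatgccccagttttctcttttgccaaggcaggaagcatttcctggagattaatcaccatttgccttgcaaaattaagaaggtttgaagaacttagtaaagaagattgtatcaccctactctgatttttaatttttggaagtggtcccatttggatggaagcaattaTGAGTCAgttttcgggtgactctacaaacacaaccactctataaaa

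Adamts1 (chr16:85803114-85803363, - strand): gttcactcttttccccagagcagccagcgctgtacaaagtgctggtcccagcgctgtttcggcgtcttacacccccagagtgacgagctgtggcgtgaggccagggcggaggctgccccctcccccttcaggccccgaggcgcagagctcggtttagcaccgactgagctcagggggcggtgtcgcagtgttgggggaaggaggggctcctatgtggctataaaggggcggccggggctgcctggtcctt

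Timp1 (chrX:20869916-20870165, + strand): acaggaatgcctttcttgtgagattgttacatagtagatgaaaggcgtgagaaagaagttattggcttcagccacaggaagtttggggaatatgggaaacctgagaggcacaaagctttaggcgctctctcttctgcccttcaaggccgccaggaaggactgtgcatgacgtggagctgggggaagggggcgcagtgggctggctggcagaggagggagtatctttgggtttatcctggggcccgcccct

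Timp3 (chr10:86300162-86300411, + strand): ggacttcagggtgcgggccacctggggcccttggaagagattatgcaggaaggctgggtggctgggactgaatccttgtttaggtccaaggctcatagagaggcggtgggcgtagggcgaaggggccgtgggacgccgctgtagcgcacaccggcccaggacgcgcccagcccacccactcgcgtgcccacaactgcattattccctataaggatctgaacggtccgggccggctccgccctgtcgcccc

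The motifs searched on both strands were the AP-1 site TGANTCA, the cyclic AMP response element TGACGTCA and the STAT site TTCNNNGAA. The AP-1 match of Mmp3, TGAGTCA, spans bases 46 to 40 before the start and overlaps no other match. AP-1 matches were present in 6.75% of 32851 RefSeq promoters of the same length, cyclic AMP response elements in 1.55% and STAT matches in 7.02%. Neither of the last 2 motifs was matched in any of the 8 promoters.

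After the authors' quality control 25009 cells were available, with 13306760 to 34552742 UMIs (unique molecular identifiers, each counting 1 captured RNA molecule) per library and a median of 3770 to 9624 UMIs per cell. The L libraries were the shallowest per cell, with medians of 3770 and 4258. Barcodes present in more than 1 library numbered 791 and had been taken out by the authors. Levels were computed for the authors' clusters C1 to C19 as CPM, the UMIs of a gene per 1000000 UMIs of all cells of 1 cluster in 1 mouse, where the mouse had 20 or more such cells, which gave 51 sums. The authors' names were set against marker genes: the basal markers summed to 7741 to 33330 CPM in the basal clusters C12 to C14 and to 15.1 to 222 CPM in the luminal classes of NP, G and PI mice, but to 907 to 4647 CPM in the alveolar cells of L mice. Some cells other than epithelium had passed the sort. The fibroblast markers summed to 14910 to 55740 CPM in C18, the immune markers to 31160 to 49410 CPM in C17 and the endothelial markers to 2844 to 3874 CPM in C19. In C15, named Procr-positive basal by the authors, pericyte markers (5170 and 5698 CPM) stood beside basal markers (8930 and 7766 CPM).

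**Figure D1:**
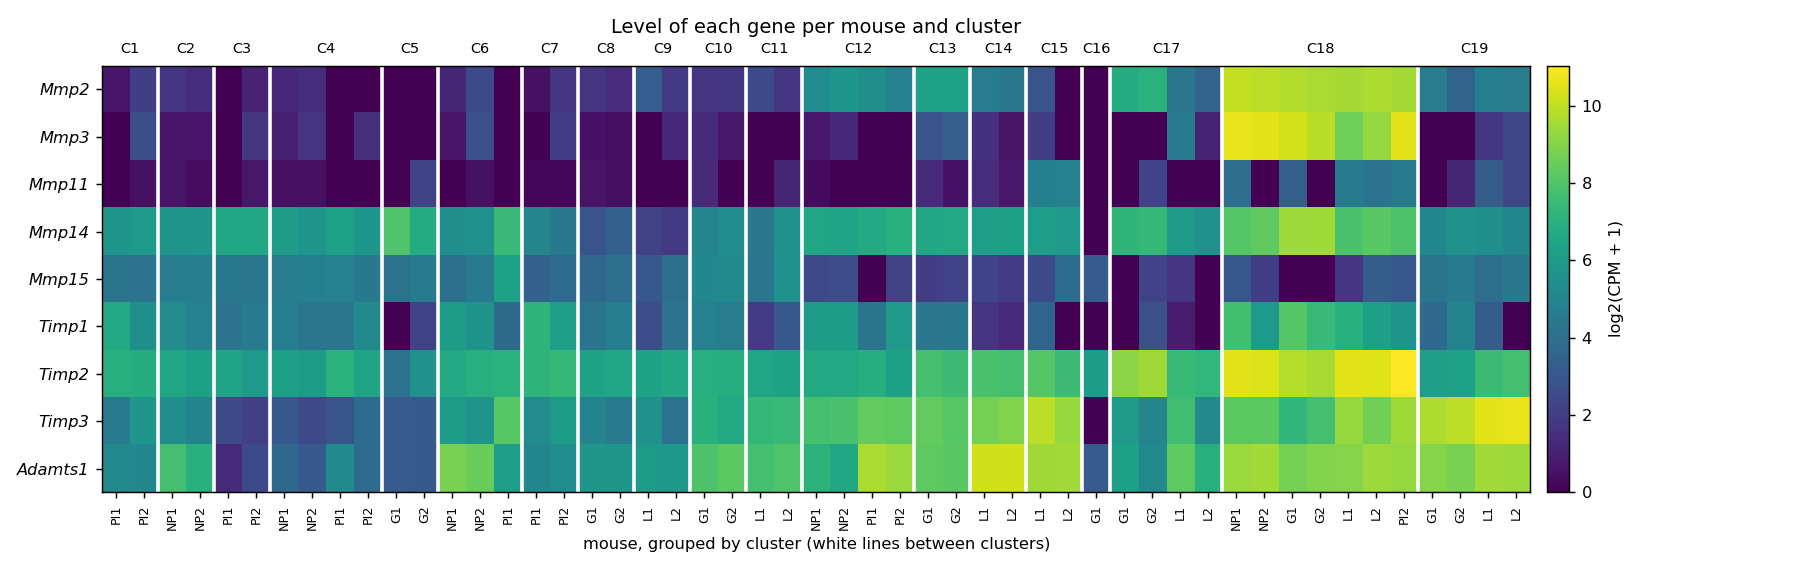
Level of the 9 genes in each of the 51 sums of mouse and cluster, as log2(CPM + 1) on a colour scale; columns are mice ordered by cluster C1 to C19 and rows are genes. Mmp2 and Mmp3 are brightest in the 7 columns of C18, Adamts1 is high in C14 of L, C12 of PI, C15, C18 and C19 and, among luminal clusters, in C6 of NP, and Mmp15 is low across C12 to C14.

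Among the secreted proteases, Mmp2, the type IV collagen-cutting gelatinase A, was highest in the fibroblast cluster C18. Its mean level there was 1013 ± 37.6 CPM in NP, 828 ± 52.1 in G and 790 ± 47.0 in L (SD, n = 2 mice each), the G and L mice overlapping. The next groups were the immune cluster C17 of G mice at 122 ± 12.5 CPM and the basal cluster C13 of G mice at 78.3 ± 0.594 CPM. The luminal clusters C1 to C11 held at most 8.73 CPM of Mmp2 in any mouse. Mmp3, or stromelysin-1, was nearly restricted to C18, with 1646 and 1555 CPM in the NP mice, 1268 and 964 in G, 384 and 629 in L and 1479 in mouse PI2. The highest level of Mmp3 outside C18 was 21.8 CPM, in C17 of mouse L1. Mmp11, stromelysin-3, was sparse everywhere. It was highest in cluster C15 of lactation, at 26.4 and 26.7 CPM on 17 and 6 UMIs. The authors named this cluster Procr-positive basal but could not exclude that its cells are non-epithelial. C18 followed, in L mice at 22.1 and 17.3 CPM on 28 and 4 UMIs and in mouse PI2 at 21.8 CPM on 3 UMIs.

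The membrane-type enzymes differed in place. Mmp14 (MT1-MMP) was found in every cluster but C16 and was highest in C18 of G mice at 693 and 711 CPM, above 267 and 312 CPM in C18 of NP mice. Among epithelial clusters with 2 mice it was lowest in the differentiated alveolar cells of L (C9), at 3.10 ± 0.565 CPM. It was highest among them in the 20 and 41 hormone-sensing cells of G (C5), at 251.5 and 108 CPM, which overlapped with basal cells of PI (C12) at 115 ± 11.1 CPM. Mmp15 (MT2-MMP) was spread over the luminal clusters and the endothelial cluster C19, where it read 20.95 ± 3.14 CPM in G and 17.5 ± 3.76 CPM in L. Among clusters with 2 mice it was highest in the alveolar progenitors, at 34.4 and 38.1 CPM in G (C10) and 19.4 and 47.0 CPM in L (C11), and neighbouring luminal clusters in that order overlapped, whereas basal cells of NP, G and L held 2.77 to 5.03 CPM. The highest single sum of Mmp15 was that of the 22 cells of C6 in mouse PI1, at 79.1 CPM on 12 UMIs.

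Of the inhibitors, Timp1 was highest in C18 of G mice with 276 and 173 CPM, overlapping with C18 of NP mice at 209 and 62.5 CPM. Timp2, the inhibitor that also docks with Mmp14, was found in each of the 51 sums, at 16.2 CPM or more. It was highest in C18, at 2103 CPM in mouse PI2, 1504 ± 73.5 CPM in L and 1443 ± 62.2 CPM in NP, the last 2 groups overlapping. Outside C18 the highest mean was that of the immune cluster C17 of G at 631 ± 99.8 CPM. Timp3, the inhibitor that is held in the matrix and also blocks ADAMTS enzymes, was highest in the endothelial cluster C19, at 1580 ± 79.9 CPM in L and 899 ± 96.4 CPM in G, followed without a gap by C15 of L at 820 ± 247 CPM.

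Adamts1, which cuts the proteoglycans versican and aggrecan, was highest in the myoepithelial cluster C14 of lactation at 1198 and 1218 CPM. That level lay above both mice of every other group, of which basal cells of PI came next at 731 ± 107 CPM. The mice of that group overlapped with those of C15 of L (717 ± 12.3 CPM), C19 of L (702 ± 23.0 CPM) and C18 of NP (701 ± 51.4 CPM). At the other end stood the hormone-sensing differentiated cells of PI (C3) with 1.5 and 4.44 CPM. Over the 51 sums the gene with the level pattern most like that of Adamts1 among 11273 genes was Timp3 (Pearson r = 0.888 of log2(CPM + 1)), followed by Ttc28 at 0.875 and the basement membrane proteoglycan gene Hspg2 at 0.857. For the other members the closest genes were Dcn for Mmp2 (r = 0.928), Pdgfra for Mmp3 (0.968), Vtn for Mmp11 (0.848), Cd63 for Mmp14 (0.824), Sh3bgrl2 for Mmp15 (0.811), S1pr2 for Timp1 (0.779), Mmp19 for Timp2 (0.875) and Plpp3 for Timp3 (0.897). These values describe sums that share mice and clusters, and no test was made of them.

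Basal cells form the contractile outer layer of the epithelium. There, from NP to G the level of 6 of the 8 genes tested changed, 5 upwards and 1 downwards, beside 46.2% of all 11084 genes tested in this comparison. The median log2 fold change was 0.69 over the members and 0.01 over all genes. From G to L, 5 of 9 changed, 2 upwards and 3 downwards, beside 48.3% of 12720 genes, so that the share of members was close to that of all genes. Most cells came from C12 in NP, C13 in G and C14 in L, clusters which the authors had formed from the same cells. Markers of the other epithelial classes moved as well from NP to G: the luminal markers fell in 4 of 4, from 5815 and 3909 CPM to 1253 and 1398 CPM, and the hormone-sensing markers in 4 of 4, from 278 and 304 CPM to 17.9 and 15.3 CPM. Their part in the changes of the members, the fall of Timp1 included, was not tested.

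**Figure D2:**
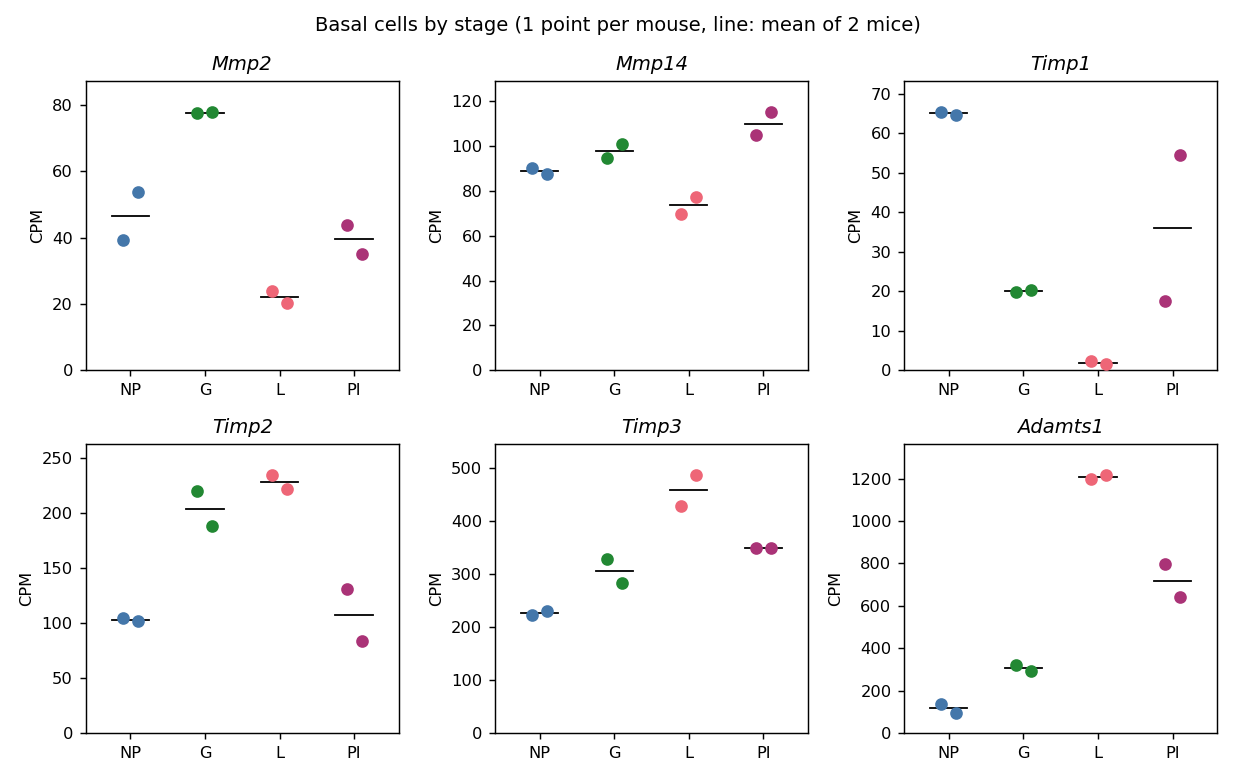
CPM of 6 genes in all basal cells (clusters C12 to C14) by stage, 1 point per mouse, where G1, PI1 and PI2 hold 1 cell more than in the tests, with the mean of 2 mice as a line; each vertical axis starts at 0. Adamts1 lies at 1198 and 1218 CPM in L, above all other mice, while Timp1 goes from about 65 CPM in both NP mice to 2.22 and 1.5 CPM in L.

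Mmp2 stood at 39.3 and 53.7 CPM in basal cells of NP mice, at 77.7 and 77.9 CPM in G and at 23.9 and 20.3 CPM in L. Both G mice were above all NP and L mice. The rise from NP to G was 0.86 ± 0.17 on the log2 scale (SE, adjusted p = 0.000543), and Mmp2 then fell by 1.70 ± 0.14 from G to L (adjusted p = 5.21e-05). A Mmp2 UMI was found in 38.3% of 525 C13 cells of mouse G1 (exact 95% interval 34.1 to 42.6%) and in 38.4% of 594 cells of G2, while in the alveolar cells C8 of the same mice it was found in 2.49 and 1.65%, at median depths of 10900.5 and 8676.5 UMIs per cell against 6201 and 6060 in C13. Thinned to 1000 UMIs per cell, the C13 shares were 6.86 and 7.74% and the C8 shares 0.260% and 0 of 1818 cells, which at 3 counts allows a share of up to 0.165% (exact 95% upper bound 0.203%).

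Since fibroblasts hold far more Mmp2, its level in basal cells was set against C18 of the same mouse. Basal Mmp2 was 3.78 and 5.44% of the C18 level in NP, 8.96 and 9.84% in G and 3.16 and 2.46% in L. The collagen gene Col1a1 reached 0.619 and 0.478%, 0.446 and 0.200%, and 0.436 and 0.130% in the same sums. Decorin (Dcn), a collagen-binding proteoglycan, reached 8.87 and 7.54% in G, near the values of Mmp2. The part of fibroblast RNA in the Mmp2 result was not tested.

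**Figure D3:**
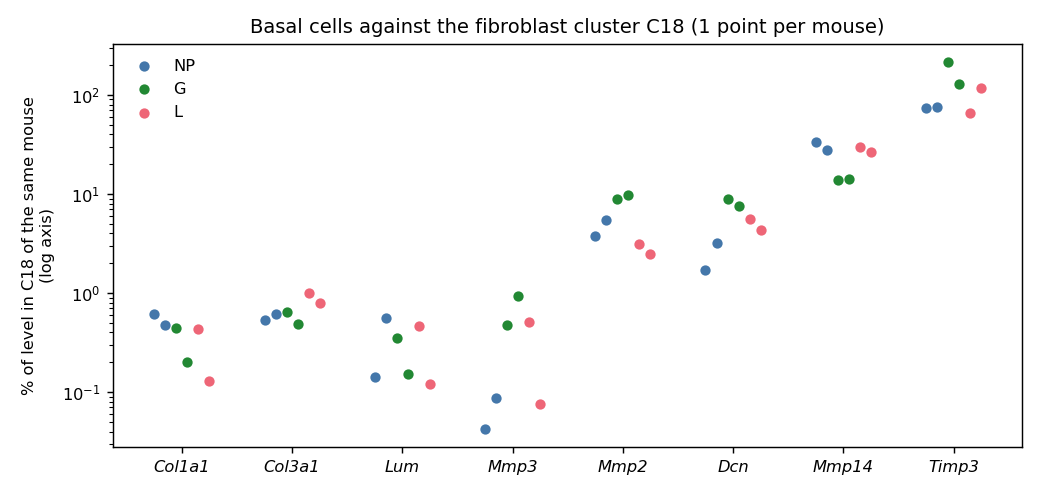
Level in basal cells as a percent of the level in the fibroblast cluster C18 of the same mouse, on a log axis, for 8 genes in 2 NP, 2 G and 2 L mice. Col1a1, Col3a1 and Lum lie at or below 0.999%, Mmp2 and Dcn between 1.71 and 9.84%, and Mmp14 and Timp3 at 13.7% or more.

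Mmp3 in basal cells rested on few cells. It counted 3 UMIs in each NP mouse, 24 and 40 in G, and 41 and 8 in L, or 0.705 and 1.37 CPM, 6.05 and 8.98 CPM, and 1.94 and 0.481 CPM. The test gave a rise of 3.06 ± 0.53 from NP to G (adjusted p = 0.000202) and a fall of 2.47 ± 0.54 from G to L (adjusted p = 0.00559). However, the 24 UMIs of mouse G1 came from 3 cells, of which 1 held 21, and the 40 of G2 from 4 cells, of which 1 held 36. In these cells the fibroblast markers summed to 9245 and 15990 CPM, against 829 and 596 CPM in the other basal cells of the same mice, and 5 of the 7 fibroblast markers tested rose with Mmp3 from NP to G (median log2 fold change 1.43). The part of fibroblast RNA in the Mmp3 result was not tested.

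Mmp14 and Mmp15, the membrane-type enzymes, did not pass the test in basal cells. Mmp14 read 90.0 and 87.4 CPM in NP, 95.1 and 101 CPM in G, and 69.6 and 77.5 CPM in L. Mmp15 stayed at or below 5.01 CPM in the same mice.

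The 3 inhibitors went different ways in basal cells. Timp1 lay at 65.3 and 64.6 CPM in NP, at 19.9 and 20.4 CPM in G and at 2.22 and 1.5 CPM in L, and the mice of the 3 stages did not overlap. It fell by 1.60 ± 0.17 from NP to G (adjusted p = 1.55e-06) and by a further 3.30 ± 0.26 from G to L (adjusted p = 3.81e-05), where 47 and 25 UMIs were left in 4639 and 3105 cells. Timp2 lay at 104 and 102 CPM in NP and at 219 and 187 CPM in G, a rise of 1.07 ± 0.13 (adjusted p = 9.49e-06), and at 234 and 222 CPM in L, which did not pass the test against G. Timp3 lay at 222 and 230 CPM in NP, 329 and 284 CPM in G and 429 and 488 CPM in L, rising by 0.53 ± 0.13 and then by 0.70 ± 0.13 (adjusted p = 0.00323 and 0.0026). Timp1 was thus lowest in the stage in which Timp3 was highest.

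Adamts1 rose at both steps. It lay at 137 and 93.8 CPM in basal cells of NP, 317 and 292 CPM in G, and 1198 and 1218 CPM in L, with no overlap. The rise was 1.47 ± 0.15 on the log2 scale from NP to G (adjusted p = 1.24e-06) and 2.10 ± 0.11 from G to L (adjusted p = 7.46e-06), or 4.28-fold. Genes of the dissociation stress response moved with it: 12 of 14 rose from NP to G and 14 of 14 from G to L, and their summed level went from 3126 and 3348 CPM in NP to 4736 and 8062 in G and to 26430 and 32850 in L. Their part in the Adamts1 result was not tested.

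Other genes of the same protease families were counted from fixed lists. From NP to G, 9 of 10 other ADAMTS genes tested rose in basal cells and none fell, while 2692 of all 11084 genes rose and 2432 fell. Among the 9 were Adamts18 (11.1 and 17.3 CPM in NP, 131 and 138 CPM in G, log2 fold change 3.41 ± 0.19) and Adamts9 (3.14 ± 0.18). From G to L, 4 of 12 rose and 4 fell, beside 3081 and 3057 of all 12720 genes. Adamts18 returned to 5.58 and 5.48 CPM in L, whereas the aggrecanase gene Adamts4 went from 10.6 and 9.88 CPM to 122.5 and 123 CPM. Of 18 activators and other inhibitors tested, 7 rose and 4 fell from NP to G, with Plaur, the urokinase receptor, going from 269 and 233 CPM to 52.7 and 72.9 CPM and the serine protease gene Htra1 from 151 and 153 CPM to 441 and 437 CPM. The 1 other matrix metalloproteinase tested at that step did not pass, nor did 5 of 6 membrane ADAM proteases, the last of which fell.

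Basal cells of PI mice were compared with those of NP mice. They were few, 27 in PI1 and 58 in PI2, nearly all in C12 as were those of NP. Only Adamts1 passed the test among 6 members, beside 7.53% of 8496 genes. It lay at 137 and 93.8 CPM in NP and at 807 and 627 CPM in PI, on 90 and 194 UMIs, with no overlap, and was 5.94-fold higher (log2 fold change 2.57 ± 0.20, adjusted p = 8.6e-10). Timp3 lay at 222 and 230 CPM in NP and at 332 and 343 CPM in PI without passing (adjusted p = 0.0642), and Timp1 at 17.9 CPM in PI1 and 55.0 CPM in PI2, on 2 and 17 UMIs (0.403). A UMI of Adamts1 was found in 33.1 and 30.1% of C12 cells in NP and in 70.4 and 73.6% in PI, and after thinning to 1000 UMIs in 9.92 and 7.45% against 40.7 and 35.9%. Adamts4 and Adamts5, both aggrecanase genes, rose too (4.61 ± 0.52 and 2.99 ± 0.40), and 10 of 14 dissociation stress genes rose (median 1.03), their summed level being 3126 and 3348 CPM in NP and 4931 and 6084 CPM in PI. Of 5 basal markers 1 rose and 2 fell, and the 1 immune marker tested rose. Immune markers summed to 89.3 and 71.0 CPM in NP and to 831 and 28.8 CPM in PI1 and PI2. Hormone-sensing markers, of which none passed, summed to 278 and 304 CPM in NP and to 8.74 and 768 CPM in PI1 and PI2. The part of the markers and stress genes in the Adamts1 result was not tested. Without the filter on low counts no gene passed with edgeR in this comparison (1704 had an unadjusted p under 0.05, and DESeq2 with the filter called 375), and the adjusted p of Adamts1 was then 0.163.

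Luminal progenitors showed the reverse for Adamts1. Parous and nulliparous mice were compared there because the study asked whether a completed pregnancy leaves a mark on these cells; most NP cells belonged to C6 and most PI cells to C7. Adamts1 lay at 447 and 373 CPM in NP and at 33.0 and 40.4 CPM in PI, with no overlap, and was 10.5-fold lower after involution (log2 fold change -3.40 ± 0.15, adjusted p = 2.77e-07). A UMI was found in 64.0 and 55.7% of C6 cells of NP mice and in 11.9 and 14.5% of C7 cells of PI mice. At 1000 UMIs per cell the shares were 29.6 and 22.2% against 2.18 and 2.54%. In C3, with 1.5 and 4.44 CPM of Adamts1, the shares were 0.971 and 1.65% of cells before thinning. The summed stress genes overlapped here, at 9062 and 7553 CPM in NP and 7934 and 8313 CPM in PI, and 2 of 14 rose and 1 fell.

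**Figure D4:**
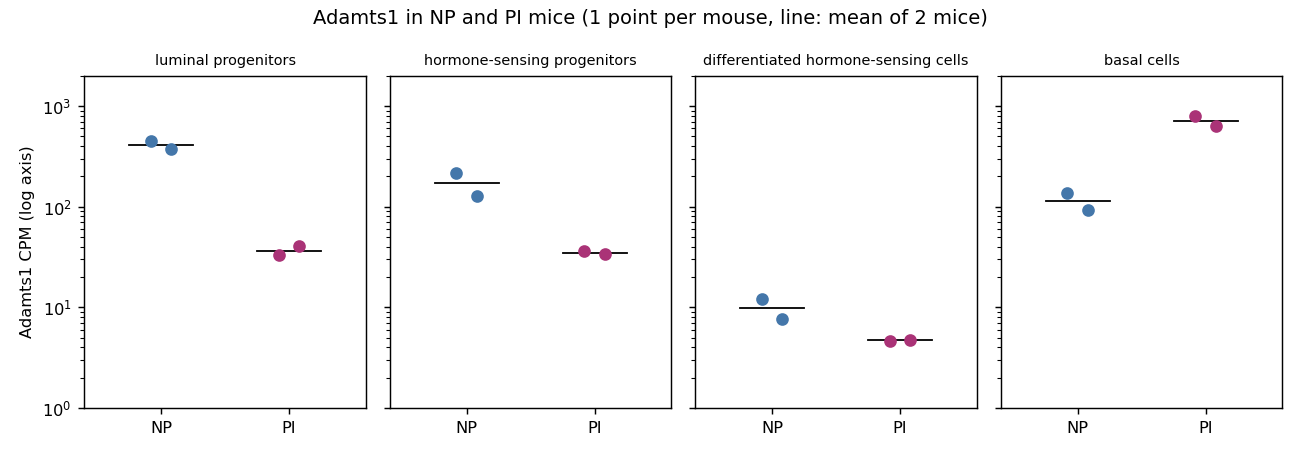
Adamts1 CPM on a log axis in NP and PI mice for 4 cell classes, 1 point per mouse, with the mean of 2 mice as a line. The PI mice lie below the NP mice in luminal progenitors and in both hormone-sensing classes, and above them in basal cells.

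In all, 4 of the 8 members tested changed in luminal progenitors, 2 upwards and 2 downwards, beside 26.9% of 10766 genes. Mmp14 lay at 44.4 and 45.5 CPM in NP and 34.3 and 21.9 CPM in PI, a fall of 0.60 ± 0.20 (adjusted p = 0.049). Timp1 lay at 67.0 and 48.0 CPM in NP and 139 and 69.3 CPM in PI, a rise of 0.92 ± 0.27 (adjusted p = 0.0286). Timp2 lay at 99.6 and 118 CPM in NP and 144 and 165 CPM in PI, a rise of 0.59 ± 0.14 (adjusted p = 0.011). Although the mice did not overlap for these 3 genes, the calls were thin: with DESeq2 the adjusted p was 0.154 for Mmp14 and 0.239 for Timp1. Leaving out a mouse leaves 1 mouse in its group, which is then assumed to vary like the pair in the other. Such fits did not call Mmp14 without NP1, NP2 or PI2 (log2 fold changes -0.64, -0.56 and -0.31, adjusted p = 0.109, 0.142 and 0.247). They did not call Timp1 without NP2 or PI1 (0.74 and 0.35, adjusted p = 0.13 and 0.157), nor Timp2 without NP1 (0.44, adjusted p = 0.135). PI1, the mouse in dioestrus, was the higher of the PI mice for Timp1. Alveolar markers rose in the same cells (3 of 3 tested), from 8.75 and 20.3 CPM in NP to 1425 and 1754 CPM in PI, and the fibroblast markers, 2 of 4 of which fell, read 197 CPM in NP2 against 1.19 to 25.9 CPM in the other 3 mice. Within C6 alone, the 22 cells of PI1 went the opposite way for Mmp14 and Timp1. They held 178 CPM of Mmp14 on 27 UMIs, above both NP mice, and 13.2 CPM of Timp1 on 2 UMIs, below both. Timp2 (132 CPM, 20 UMIs) lay above the NP mice and Adamts1 (72.5 CPM, 11 UMIs) below them, as in the whole class.

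Hormone-sensing progenitors, compared in the same way with most NP cells in C2 and most PI cells in C1, gave 3 changes among 6 members tested, beside 16.6% of 10692 genes. Adamts1 lay at 215 and 129 CPM in NP and at 35.9 and 33.7 CPM in PI, 5.0-fold lower without overlap (log2 fold change -2.32 ± 0.21, adjusted p = 1.96e-05). Timp1 lay at 39.4 and 28.3 CPM in NP and 103 and 44.6 CPM in PI (1.01 ± 0.29, adjusted p = 0.0354). Timp2 lay at 90.0 and 75.4 CPM in NP and 122 and 112 CPM in PI (0.48 ± 0.13, adjusted p = 0.0287). Here too PI mice lay above NP mice for both inhibitors, but with DESeq2 the adjusted p was 0.338 for Timp1 and 0.131 for Timp2, and both calls were also lost at equal cell numbers and without either NP mouse. PI1 was again the higher for Timp1, and without it the log2 fold change was 0.40 (adjusted p = 0.14). Alveolar markers rose here too (3 of 3 tested), from 5.60 and 1.73 CPM to 683 and 798 CPM, while the stress genes split, with 3 up and 2 down of 14.

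In differentiated hormone-sensing cells, with most NP cells in C4 and most PI cells in C3, 2 of 8 members changed between NP and PI, beside 14.3% of 11994 genes. Adamts1 was low in both, at 11.98 and 7.70 CPM in NP and 4.66 and 4.73 CPM in PI (log2 fold change -1.09 ± 0.26, adjusted p = 0.0166). Of its 17 UMIs in PI1, 12 came from the 40 cells of C4. Within C4 alone the direction was the opposite. PI mice lay there at 37.95 and 13.4 CPM, on 12 and 7 UMIs, above NP mice at 12.1 and 7.72 CPM. Mmp14 went up, from 67.4 and 53.9 CPM to 94.2 and 93.7 CPM (0.58 ± 0.15, adjusted p = 0.0254). The Adamts1 call was lost with DESeq2 (adjusted p = 0.0551) and without NP1 (0.227), and the Mmp14 call without NP2 (0.281). Basal markers fell beside Adamts1 in 3 of 4, from 121 and 50.6 CPM in NP to 15.1 and 22.2 CPM in PI, and their part in its fall was not tested.

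The fall of Adamts1 after involution was larger in luminal progenitors than in differentiated hormone-sensing cells. In a fit with the mouse as a term, which compares both classes within each mouse, the difference of the 2 changes was -2.28 ± 0.25 for Adamts1 (adjusted p = 9.67e-06) and -1.21 ± 0.24 for Mmp14 (adjusted p = 0.00235). These 2 of 8 members passed, beside 13% of 12160 genes. A second such difference, between basal cells and luminal progenitors, was added after the values had been seen. Adamts1 differed by 5.89 ± 0.21 (adjusted p = 2.86e-57 with DESeq2, 1.34e-167 with edgeR, where the prior degrees of freedom were infinite), and 4 of 8 members passed with edgeR, beside 7.82% of 10801 genes. The other 3, Mmp14, Timp1 and Timp2, had adjusted p of 0.437, 0.542 and 0.647 with DESeq2.

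Hormone-sensing cells of gestation, only 20 and 41 in C5, were set against those of NP in C4. Of 6 members 3 passed, beside 18.7% of 10974 genes, and the median log2 fold change of all genes in this fit was -0.20. The prior degrees of freedom were infinite in this fit, so its p-values rest on spread shared across genes and not on that of each gene. Mmp14 lay at 66.9 and 54.1 CPM in NP and at 251.5 and 108 CPM in G (1.16 ± 0.25, adjusted p = 5.95e-05). Timp1 had 1 UMI in the G cells against 601 in NP, a ratio of 0.118 by CPM (exact 95% interval 0.003 to 0.663, counting error only; adjusted p = 0.00453). Timp2 lay at 73.8 and 68.0 CPM in NP and at 16.2 and 50.3 CPM in G, on 2 and 13 UMIs (-1.10 ± 0.36, adjusted p = 0.0163). Without mouse G1 none of the 3 passed, at adjusted p of 0.258, 0.0516 and 0.219, and Timp1 was lost without G2 as well (0.119). In the same cells 3 of 4 luminal markers fell, from 21550 and 16570 CPM to 9834 and 10580 CPM, both alveolar markers tested rose, from 0.627 and 0.687 CPM to 722 and 387 CPM, and of 14 stress genes 2 rose and 5 fell. The part of these in the 3 results was not tested.

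Alveolar cells arise in gestation and make milk in lactation, so L was compared with G in both of their classes. In alveolar progenitors (C11 against C10) 2 of 6 members passed, beside 28.0% of 8446 genes. Timp1 lay at 27.5 and 24.3 CPM in G and at 2.66 and 8.05 CPM in L, on 3 and 7 UMIs, a fall of 2.06 ± 0.45 (adjusted p = 0.00824). Timp3 lay at 127 and 101 CPM in G and at 168 and 175 CPM in L, a rise of 0.87 ± 0.17 (adjusted p = 0.00429), which did not pass without mouse G2 (0.0546). Basal markers rose in the same cells, 5 of 5, from 164 and 222 CPM to 4647 and 3424 CPM, as did 13 of 14 dissociation stress genes, and their part in the Timp3 result was not tested.

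In differentiated alveolar cells, 43 and 48 in L (C9) against 1926 and 1818 in G (C8), 4 of 7 members passed, all upwards, beside 18.7% of 11860 genes. The fold changes are on the scale of edgeR's TMM normalisation, on which the median of all genes moved by -0.14. On that scale each of the 7 members stood higher than by the log2 ratio of its mean CPM in L to that in G. That ratio was 1.59 for Mmp2, 0.09 for Timp2, 0.54 for Timp3 and 0.12 for Adamts1. It was negative for Mmp14, Mmp15 and Timp1. Timp2 lay at 81.1 and 90.9 CPM in G and at 84.9 and 98.0 CPM in L (log2 fold change 1.00 ± 0.18, adjusted p = 0.00172), overlapping in CPM, and Adamts1 at 55.8 and 56.2 CPM in G and at 64.1 and 57.7 CPM in L (1.02 ± 0.19, adjusted p = 0.00233). Mmp2 lay at 2.12 and 1.64 CPM in G and at 8.66 and 2.69 CPM in L, on only 5 and 2 UMIs (2.39 ± 0.78, adjusted p = 0.0487). Timp3 lay at 30.3 and 23.4 CPM in G and at 60.6 and 17.5 CPM in L, overlapping (1.34 ± 0.39, adjusted p = 0.0315). The alveolar markers, which are milk genes, went from 37250 and 22820 CPM in G to 193700 and 213600 CPM in L. With the milk protein genes left out Timp2, Timp3 and Adamts1 still passed (0.99, 1.34 and 1.01), and Mmp2 did not (2.38, adjusted p = 0.0517). That fit was again scaled by TMM, and why the fold changes exceed the CPM ratios was not tested. All 5 basal markers rose in these cells too, from 133 and 124 CPM to 2069 and 907 CPM, as did 12 of 14 stress genes, and the part of all these genes in the 4 results was not tested. Without mouse L1 the adjusted p was 0.489 for Mmp2 and 0.705 for Timp3, and without mouse G2 the calls of Adamts1 (0.0507) and Timp3 (0.165) were lost.

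The alveolar progenitors of G (C10) were finally set against the luminal progenitors of NP (C6), between which cell class and stage cannot be told apart. Of 6 members 4 passed, beside 47.5% of 9564 genes, so that the share of members was no clear departure from that of all genes. Mmp15 lay at 34.4 and 38.1 CPM in C10 and 15.7 and 21.6 CPM in C6 (0.97 ± 0.24, adjusted p = 0.00559). Timp3 lay at 127 and 101 CPM in C10 and 62.8 and 51.8 CPM in C6 (0.96 ± 0.16, adjusted p = 0.000381). Timp1 lay at 27.5 and 24.3 CPM in C10 and at 67.0 and 48.1 CPM in C6, a fall of 1.18 ± 0.21 (adjusted p = 0.000782), and Adamts1 at 249 and 303 CPM against 447 and 374 CPM, a fall of 0.58 ± 0.14 (adjusted p = 0.005). At equal cell numbers Timp1 and Adamts1 no longer passed (0.18 and 0.0756), and Mmp15 missed the threshold with DESeq2 (0.0511). Of 14 stress genes 9 rose and 2 fell, their sum being 9062 and 7553 CPM in C6 and 13050 and 10900 CPM in C10, the luminal markers fell in 4 of 4 (median log2 fold change -1.44) and the basal markers rose in 2 of 4. Their part was not tested.

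The same lists were counted in luminal cells. After involution 2 of 8 other ADAMTS genes rose and 2 fell in luminal progenitors, all below 20 CPM, where 1494 of all 10766 genes rose and 1398 fell, and no other matrix metalloproteinase had enough counts to be tested there. Of 5 membrane ADAM proteases 2 fell, among them Adam17, the sheddase that releases EGF receptor ligands, from 24.4 and 24.0 CPM in NP to 9.68 and 9.22 CPM in PI (log2 fold change -1.28 ± 0.19, adjusted p = 0.000706). Of 15 activators and other inhibitors 2 rose and 6 fell. They included Serpinh1, a collagen chaperone (65.8 and 59.2 CPM to 26.8 and 38.4 CPM), and Bsg, the metalloproteinase inducer basigin, which rose (499 and 587 CPM to 791 and 783 CPM). Serpine2, an inhibitor of serine proteases, rose in both hormone-sensing classes, from 22.8 and 21.1 CPM to 65.6 and 44.2 CPM in progenitors and from 31.8 and 28.6 CPM to 108.5 and 77.4 CPM in differentiated cells. Between C6 of NP and C10 of G, 3 of 15 activators and other inhibitors rose and 7 fell, beside 2324 and 2216 of all 9564 genes, the widest fall being that of Plaur, from 365 and 332 CPM to 4.59 and 10.6 CPM (-5.47 ± 0.23, adjusted p = 5.53e-08).

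**Figure D5:**
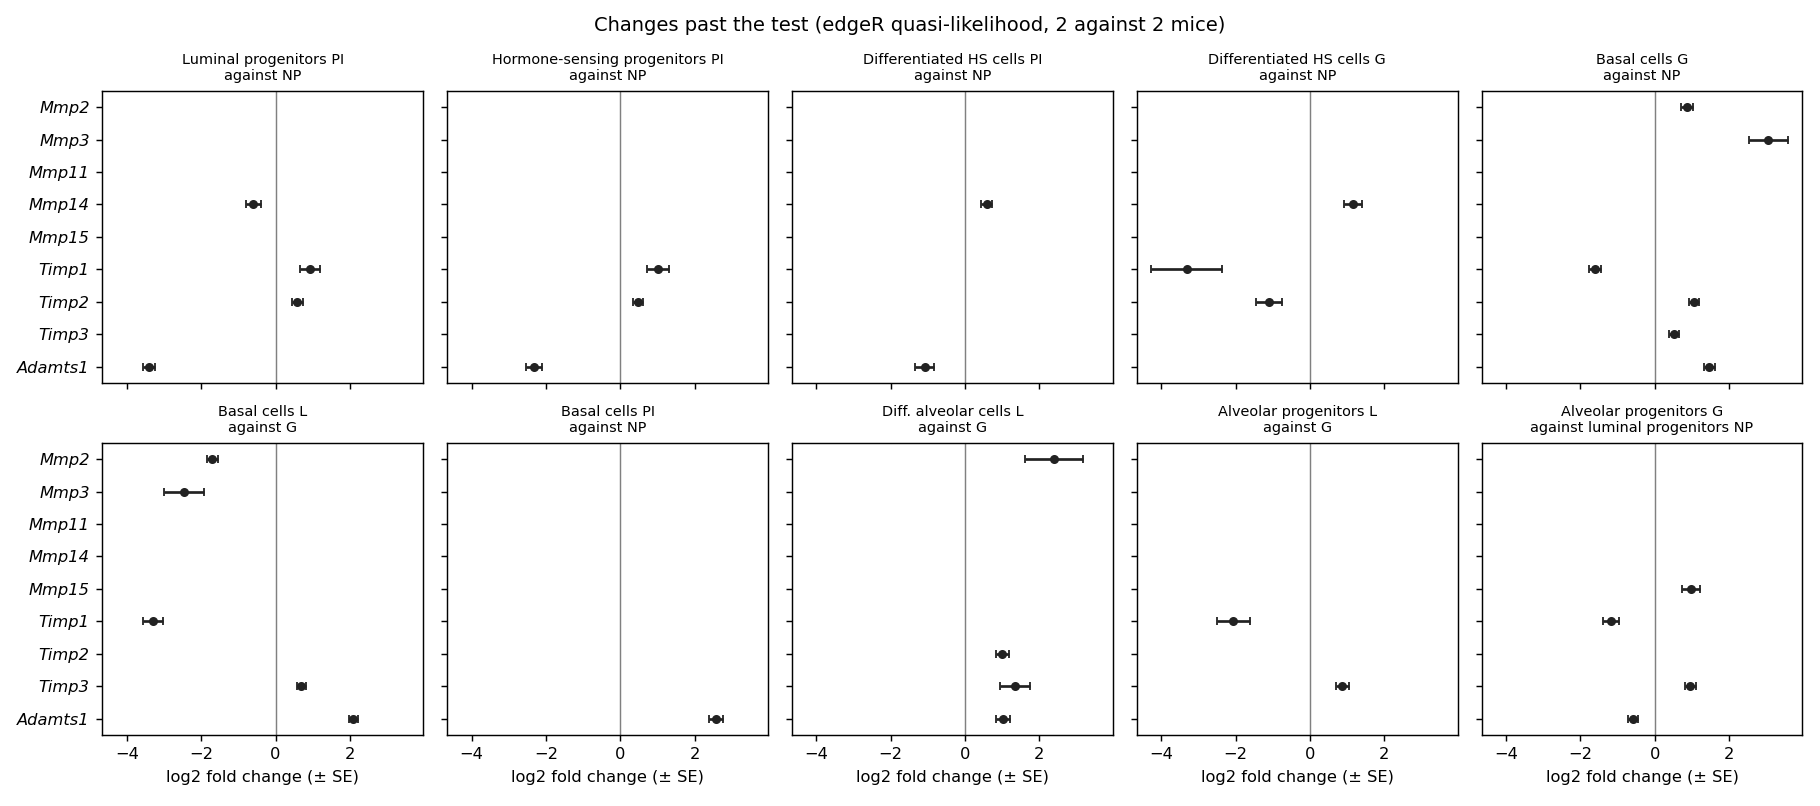
Log2 fold change of each gene that passed the edgeR quasi-likelihood test, with its SE as a horizontal bar, in 10 comparisons of 2 against 2 mice; 0 is no change. Adamts1 lies at -3.40 in luminal progenitors and at 2.57 in basal cells for PI against NP, and Timp1 lies below 0 in each comparison of G with NP, of L with G and of C10 with C6 in which it passed.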

How the data were processed

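Single-cell RNA of sorted mammary epithelial cells was measured on the 10x Genomics platform. The authors deposited UMI counts per gene and cell made with Cell Ranger, which uses STAR, against mm10, and a table of cells with their quality filter, cluster and a fraction of mitochondrial counts; all were used as deposited. Cells that passed the authors' filters (25009) and lay in C1 to C19 (24699) were kept, and no doublet caller was run here. UMIs were summed per mouse and cluster with 20 or more cells. Classes of clusters were compared between stages over mice with edgeR 4.0.16 (quasi-likelihood F-test, TMM scaling, filterByExpr with a minimum count of 10 and total of 15) across all genes, with Benjamini-Hochberg adjustment and a threshold of 0.05; errors of log2 fold changes are SE. With 2 mice per stage, p-values rest on spread shared across genes. The scripts were first tested on simulated data with a fixed spread between sums. By comparison, 2.8 to 23.1% of 2-fold changes and 45.7 to 100% of 4-fold changes were recovered. The lowest values were those of basal cells of PI against NP. A gene that did not pass is therefore not shown to be unchanged. False calls made up 0.0 to 7.8% of the calls in these simulations. They exceeded the 5% set by the threshold in differentiated hormone-sensing cells of PI against NP (7.1%), differentiated alveolar cells (7.8%) and alveolar progenitors of L against G (5.3%). Shares of cells carry exact Clopper-Pearson 95% intervals, and each cell was thinned to 1000 UMIs for comparison; intervals and floors cover counting error only. Likeness of pattern was Pearson's r of log2(CPM + 1) over 51 sums and 11273 genes, and the 3 closest genes per member were taken. Alternatives were DESeq2 1.42.0, no filter, a replicate block, equal cell numbers, the main cluster only, milk genes left out and each mouse left out. The members, lists and comparisons were chosen with earlier results of these data known, and clusters had been formed from the same cells, so levels between clusters are descriptions. Replicate numbers only name mice: deviations of same-numbered mice correlated at -0.052 to 0.073. The genes named are the members, their closest genes, and list genes that passed with 20 CPM or more.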

Additional observations from a re-analysis of the deposited data

Results flagged for a closer look

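For 4 genes the PI against NP change was not the same in different cell classes. Between luminal progenitors and differentiated hormone-sensing cells the difference of the log2 changes was -1.21 for Mmp14 and -2.28 for Adamts1, and both calls held in each alternative run, the adjusted p of Mmp14 running from 8.43e-10 to 0.0166. Between basal cells and luminal progenitors, a comparison added after the values were seen, it was 5.89 for Adamts1, 0.98 for Mmp14, -1.31 for Timp1 and -0.86 for Timp2. The Adamts1 difference was 5.62 to 6.23 with 1 mouse left out and was called each time. The last 3 did not pass with DESeq2, and each was lost without at least 2 of the 4 mice.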

How the results depend on the processing

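Of the members' log2 fold changes recomputed with the alternative settings 324 kept direction and side of the threshold, 41 lost the call, 12 gained it and 6 changed sign; causes were not tested. These leave aside the added difference of basal cells and luminal progenitors, in which 12 kept and 12 lost the call, and the 38 pairs of member and comparison called under no setting, of which 19 changed sign under 1 or more. Members called with DESeq2 in place of edgeR fell to 2 in luminal progenitors, 1 in hormone-sensing progenitors, 1 each in differentiated hormone-sensing cells of PI and of G, and 1 in the added difference of basal cells and luminal progenitors. At equal cell numbers there were 1 in hormone-sensing progenitors, 2 in differentiated alveolar cells and 2 for C10 against C6, and with only the main clusters 2 in differentiated alveolar cells. Without a filter there were 0 in basal cells of PI and 4 in the difference of luminal progenitors and hormone-sensing cells. With 1 mouse left out the counts were 2 to 3 (luminal progenitors), 1 to 4 (hormone-sensing progenitors), 1 to 4 (differentiated, PI), 0 to 2 (differentiated, G), 1 to 2 (basal, PI), 1 to 4 (differentiated alveolar), 1 to 2 (alveolar progenitors), 3 to 4 and 1 to 3 (the 2 differences). The replicate block, where the numbers only name mice, ended the Mmp2 call in differentiated alveolar cells (log2 2.39, adjusted p = 0.0669) and no other. Timp3 in hormone-sensing progenitors (0.22) became -0.009 at equal cell numbers and -0.69 to 0.61 with 1 mouse left out. Mmp3 in differentiated hormone-sensing cells of PI (0.09) became -0.34 with DESeq2, -0.29 with the block and -7.04 to 0.77 with 1 mouse left out, PI1 having no UMI; neither was called. A share of cells over 50% was seen in 108 of 459 values and in 17 at 1000 UMIs.

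All genes called dropped with DESeq2 from 2892 to 1590 (luminal progenitors), 1778 to 823 (hormone-sensing progenitors), 5124 to 3091 (basal, G), 640 to 375 (basal, PI), 2368 to 1144 (alveolar progenitors), 4540 to 2711 (C10 against C6), 1578 to 627 and 845 to 177 (the differences). At equal cell numbers 1105, 775, 87 and 924 were called, against 1778 (hormone-sensing progenitors), 2048 (differentiated, G), 640 (basal, PI) and 2219 (differentiated alveolar), and 948 of 1578 without the mouse term. With 1 mouse left out all genes called ranged from 1704 to 2472 (luminal progenitors), 476 to 1960 (hormone-sensing progenitors), 928 to 2458 (differentiated, PI), 667 to 1381 (differentiated, G), 3412 to 5079 (basal, G), 4657 to 5703 (basal, L), 172 to 861 (basal, PI), 609 to 1890 (differentiated alveolar), 1625 to 2538 (alveolar progenitors), 3523 to 4289 (C10 against C6), 936 to 2012 and 189 to 665 (the differences). Counts over 1.5 times lower came without NP1 (all PI comparisons and their differences, and both comparisons of G with NP), without NP2 (all hormone-sensing comparisons, basal cells of PI and the difference of basal cells and luminal progenitors), without G2 (differentiated hormone-sensing cells of G and differentiated alveolar cells), without G1 (differentiated alveolar cells) and without PI2 (basal cells of PI). The share of calls that were higher moved with DESeq2 from 43.1 to 53.8% (differentiated, G), 51.0 to 62.4% (differentiated alveolar), 56.0 to 71.7% (alveolar progenitors) and 42.8 to 74.0% (basal minus luminal progenitors).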
